A study of Rattus norvegicus with 96 samples.

Results

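The regulators of G protein signaling (RGS proteins) described here are 10 genes, Rgs2, Rgs4, Rgs5, Rgs7, Rgs8, Rgs9, Rgs10, Rgs14, Rgs16 and Rgs17, of 14218 genes that had a probe set of their own on the rat array. For each, the probe set annotated to that symbol alone with the highest mean signal was followed in 8 brain regions and 3 groups of rats. The labels give no strain, sex or age for them beyond matching in age. Dependent rats self-administered 10% alcohol for 4 weeks and were then exposed to intermittent alcohol vapor for 4 weeks, and non-dependent rats self-administered in the same way without vapor. Naive rats had no alcohol and were matched in age, and tissue of all groups was taken 3 weeks after the end of vapor exposure. Per the labels, dependent rats also drank more than non-dependent rats in sessions during withdrawal, so that vapor exposure and drinking cannot be told apart in the comparison of dependent with non-dependent rats. The regions were medial prefrontal cortex (mPFC), nucleus accumbens core (NAcC) and shell (NAcSh), central (CeA) and basolateral (BLA) nuclei of the amygdala, dorsolateral (dlBNST) and ventral (vBNST) bed nucleus of the stria terminalis, and ventral tegmental area (VTA). Each group had 4 arrays per region. Of 96 arrays, 92 were used, which left 3 arrays for CeA, BLA and VTA of non-dependent rats and for vBNST of dependent rats. The study used 4 rats per group for all 8 regions, and the labels do not say which arrays came from the same rat.

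RGS proteins end signaling by G proteins. A receptor loads the alpha subunit of its G protein with GTP, and the RGS domain speeds the hydrolysis of that GTP, so that both the alpha subunit and the freed beta-gamma dimer return to rest sooner. The members fall into families by structure. Rgs2, Rgs4, Rgs5, Rgs8 and Rgs16 are small proteins with little beyond the RGS domain, Rgs7 and Rgs9 need the beta subunit Gnb5 and are held at the membrane by Rgs7bp, Rgs10 and Rgs14 prefer Gi-type alpha subunits, and Rgs17 acts on Gi-type subunits including Gz. In the brain these proteins set how strongly and how long dopamine, opioid, muscarinic and glutamate receptors act, and a long splice form of Rgs9 is known as a striatal protein.

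All values are log2 signals of the array. Signals of different probe sets are on scales of their own, so only 1 gene across samples is compared. The 92 arrays each correlated with their most similar array at r = 0.989 or more, whereas the best correlation of the 4 arrays left out was 0.345 to 0.961. Markers in naive rats matched the labels of NAcC, NAcSh, VTA, mPFC and BLA. No markers were chosen for CeA, dlBNST or vBNST, whose labels were not checked in this way. The mean log2 signal of 7 markers of striatal medium spiny neurons was 10.38 in NAcC and 9.40 in NAcSh and at most 6.92 elsewhere. That of 6 dopamine neuron markers was 7.83 in VTA and at most 3.73 elsewhere. That of 5 cortical glutamatergic neuron markers was 7.12 in mPFC, 5.65 in BLA and at most 3.66 elsewhere. Naive replicate 2 of NAcSh stood apart. Its cortical markers averaged 5.36, against 2.96 to 3.25 in the other naive NAcSh arrays, with Slc17a7, the vesicular glutamate transporter of cortical neurons, at 6.96, and its medium spiny neuron markers averaged 8.41, against 9.48 to 10.18. Dependent replicate 3 of NAcSh had cortical markers at 4.58. Fits with naive NAcSh arrays were therefore repeated without naive replicate 2, and both values are given for calls of the members that rest on it. Group differences of the partner lists and cell type markers, and correlations between genes, are given with that array only. The array measures bulk tissue, in which fewer cells of a type and less RNA per cell cannot be told apart.

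The first question was where in the brain of naive rats each member was high or low. Genes were fitted when their mean was above 4, the level used here as the limit for dim genes, in at least 1 region. Rgs8 and Rgs9 met this in NAcC only, so that they had to differ there, and their regional levels are given as a description. Of the other 8 members, Rgs16 was above 4 in 6 regions and 7 were in all 8. These 8 members differed among the regions (limma, moderated F, 32 naive arrays, adjusted p under 0.05), as did 96.6% of the 9965 genes tested, so that this count says nothing particular about the members. When each region was set against the mean of the other 7, 38 of their 64 contrasts passed, with a background of 50.7% over all genes and regions. By region, 7 of the 8 members passed in mPFC (81% of genes), 4 in NAcC (53%), 5 in NAcSh (52.7%), 3 in CeA (42.4%), 6 in BLA (35.6%), 4 in dlBNST (31.2%), 3 in vBNST (46.9%) and 6 in VTA (63.1%). Without naive replicate 2 of NAcSh, 3 of the 8 members passed in NAcSh (51.6% of genes), and the counts of the other regions were the same. Among pairs of regions, 16 of the 280 contrasts of the 10 members changed their call without that array, 13 of them contrasts with NAcSh. The distance between the highest and the lowest regional mean ran from 0.97 (Rgs7) to 3.26 (Rgs4) on the log2 scale, and the median over all genes was 1.32. Rgs4, at the 91.0th percentile of genes by this distance, differed 9.55-fold between regions, Rgs17 5.13-fold and Rgs10 3.49-fold, and Rgs2, Rgs5, Rgs7 and Rgs14 differed 1.96-fold to 2.64-fold. No fold is given for Rgs8, Rgs9 and Rgs16, whose lowest regions were below 4. Where arrays of a region are said below to lie apart from other regions, the region was picked for its high or low level. The share of genes with such a separation is not given.

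**Figure D1:**
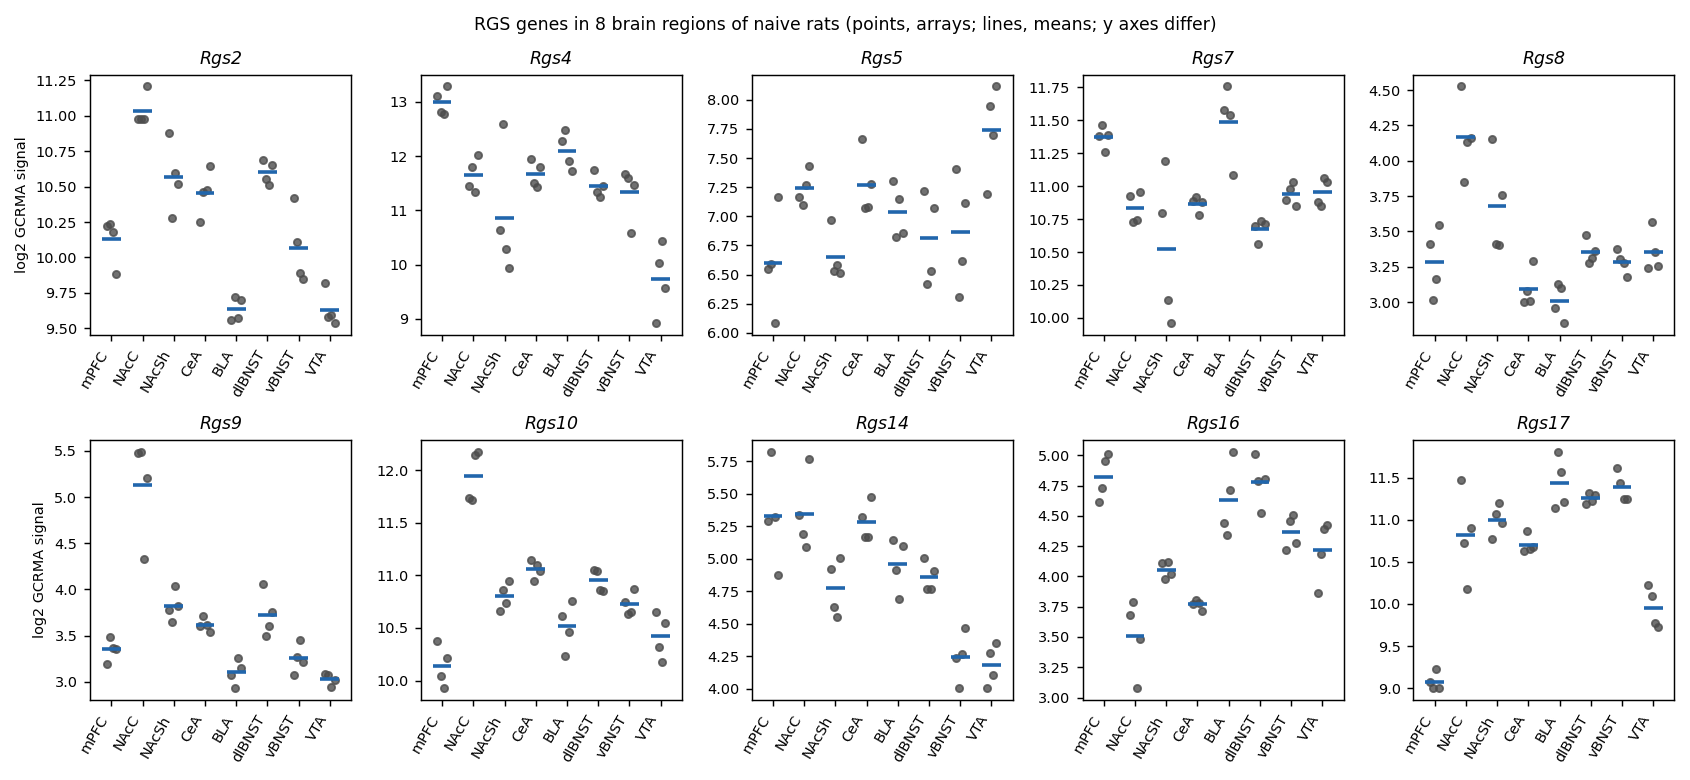
Log2 signal (y axis, with a scale of its own in each panel) of the 10 RGS genes in 8 brain regions (x axis) of naive rats, where points are arrays (n = 4 per region) and lines are means. Rgs2, Rgs8, Rgs9 and Rgs10 were highest in NAcC, Rgs4 was highest in mPFC, Rgs5 in VTA, and Rgs17 was lowest in mPFC.

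Rgs2, Rgs8, Rgs9 and Rgs10 were highest in NAcC. Over the 8 regional means of naive rats the 4 genes correlated with each other at r = 0.72 to 0.91, a description over 8 points that share arrays. They were picked by their highest region, so that a positive r was partly built in. Rgs8 and Rgs9 were above 4 in NAcC only. Rgs9 had 5.48, 5.49, 4.33 and 5.21 in NAcC, against 3.08, 3.07, 2.94 and 3.02 in VTA, its lowest region. No array of any other region reached the lowest NAcC array. NAcSh, the next region, averaged 3.82 ± 0.16 (SD, n = 4) and dlBNST 3.73 ± 0.24, and all regions outside NAcC were below 4.

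Rgs10, an RGS protein that in mice is also studied in microglia, had 11.73, 11.72, 12.14 and 12.18 in NAcC, against 10.38, 10.05, 9.93 and 10.21 in mPFC. The NAcC arrays lay above all arrays of every other region, and NAcC exceeded the mean of the rest by 1.28 ± 0.096 (SE, limma, adjusted p = 6.2e-12, background 53% of genes called). CeA, dlBNST, NAcSh and vBNST followed with means of 11.06 to 10.73, and no neighbors in this order differed. Of 7 microglia markers tested, 0 were higher in NAcC than in the rest, and all 7 markers of medium spiny neurons tested were. The same 7 were also higher in NAcSh, where Rgs10 averaged 10.80. The part of either cell type in the level of Rgs10 was not tested.

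Rgs2, which acts mainly on Gq and is induced by neuronal activity, had 10.98, 10.98, 10.97 and 11.21 in NAcC, against 9.82, 9.58, 9.59 and 9.54 in VTA. The VTA and BLA arrays, with 9.56 to 9.72 in BLA, lay below those of all other regions and did not differ from each other (adjusted p = 0.98). NAcC exceeded dlBNST, the next region, by 0.43 (adjusted p = 0.0054). Rgs8, a regulator of Gi and Gq signaling, had 4.53, 3.85, 4.13 and 4.16 in NAcC, against 2.96, 3.13, 3.10 and 2.85 in BLA. NAcC was its only region with a naive mean above 4, and NAcSh, the next, had 3.68 ± 0.36.

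The sequences before the start sites are shown for Rgs2, Rgs8, Rgs9 and Rgs10, because they shared NAcC as their highest region, and for Rgs4, because it varied most among regions. Each is the 250 bases before the annotated start in RefSeq (GRCr8), and all 10 members were matched by symbol. Capitals mark 3 motifs, each read on both strands. The CCAAT box was searched as CCAAT. The core of the cAMP response element was searched as CGTCA. The TATA box was searched as TATAAA. The Rgs10 window holds none of these.
Rgs2: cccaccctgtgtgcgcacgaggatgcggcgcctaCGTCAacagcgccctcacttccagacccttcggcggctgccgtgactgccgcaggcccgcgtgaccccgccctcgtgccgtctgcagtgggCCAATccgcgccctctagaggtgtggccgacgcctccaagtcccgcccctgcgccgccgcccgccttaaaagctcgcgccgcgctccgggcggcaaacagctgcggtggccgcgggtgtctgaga
Rgs8: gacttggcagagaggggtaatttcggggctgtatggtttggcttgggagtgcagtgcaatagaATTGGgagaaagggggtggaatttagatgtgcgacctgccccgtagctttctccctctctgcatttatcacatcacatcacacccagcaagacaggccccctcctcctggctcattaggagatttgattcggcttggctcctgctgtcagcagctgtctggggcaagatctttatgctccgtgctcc
Rgs9: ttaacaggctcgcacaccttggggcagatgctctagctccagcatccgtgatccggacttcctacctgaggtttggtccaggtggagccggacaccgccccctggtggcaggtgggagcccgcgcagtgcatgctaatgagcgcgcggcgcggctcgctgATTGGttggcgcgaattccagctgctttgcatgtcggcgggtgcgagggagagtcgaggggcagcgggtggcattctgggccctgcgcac
Rgs10: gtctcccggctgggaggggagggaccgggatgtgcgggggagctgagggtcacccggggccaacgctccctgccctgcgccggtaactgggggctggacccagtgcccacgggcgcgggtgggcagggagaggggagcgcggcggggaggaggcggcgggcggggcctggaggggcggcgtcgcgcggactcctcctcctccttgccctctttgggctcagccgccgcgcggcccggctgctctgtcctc
Rgs4: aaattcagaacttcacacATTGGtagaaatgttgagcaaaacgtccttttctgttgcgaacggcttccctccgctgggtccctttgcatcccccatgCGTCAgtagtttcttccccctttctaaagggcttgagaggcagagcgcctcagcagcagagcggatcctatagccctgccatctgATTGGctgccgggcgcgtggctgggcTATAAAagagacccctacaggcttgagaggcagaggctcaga
The Rgs2 window lies at chr13:58352667-58352916 (minus strand), that of Rgs8 at chr13:68366648-68366897 (plus strand), that of Rgs9 at chr10:94770388-94770637 (minus strand), that of Rgs10 at chr1:192418078-192418327 (minus strand) and that of Rgs4 at chr13:84475885-84476134 (minus strand). CCAAT on either strand was found in 5 of the 10 members (Rgs2, Rgs4, Rgs8, Rgs9 and Rgs16) and in 34% of 33469 windows of this length, and CGTCA in Rgs2 and Rgs4 and in 18.2% of windows. TATAAA was found in Rgs4 alone among the members, and in 12.9% of windows. The full element TGACGTCA was found in 0 members and 1.59% of windows. GGGCGG, not marked, was found in 7 members and 30.5% of windows. Of the 4 genes highest in NAcC, Rgs2, Rgs8 and Rgs9 held CCAAT and Rgs2, Rgs9 and Rgs10 held GGGCGG, so that no searched motif was in all 4 windows. The GC content was 72.4% in the Rgs2 window, 53.6% in that of Rgs8, 65.6% in that of Rgs9, 77.6% in that of Rgs10 and 54.4% in that of Rgs4. By the same annotation 6 of the 10 members lie on chromosome 13, where Rgs4 and Rgs5 are neighbors with 0 coding genes between them, as are Rgs8 and Rgs16. The neighbors did not share a regional order: the regional means correlated at r = -0.61 for Rgs4 and Rgs5 and at r = -0.60 for Rgs8 and Rgs16. For the latter pair the order rests on dim values. Rgs8 was above 4 in NAcC only, where Rgs16 was lowest at 3.51.

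Rgs4, an abundant neuronal regulator of Gi and Gq signaling, had 13.11, 12.81, 12.77 and 13.29 in mPFC, against 8.92, 10.03, 10.44 and 9.57 in VTA. All mPFC arrays lay above all arrays of every other region. Rgs4 in mPFC exceeded BLA, the next region at 12.10 ± 0.34, by 0.90 (adjusted p = 0.029), and CeA, NAcC, dlBNST and vBNST followed between 11.67 and 11.33 without a difference between neighbors. NAcSh came next with 10.64, 12.58, 10.29 and 9.94, of which 12.58 was replicate 2. With that array the NAcSh mean lay 0.70 ± 0.27 below the other 7 regions (adjusted p = 0.034, background 52.7% of genes called). Without it the mean lay 1.27 ± 0.22 below (adjusted p = 2.6e-05, background 51.6%). NAcSh minus vBNST was -0.47 with it (adjusted p = 0.30) and -1.04 without it (adjusted p = 0.0026), and NAcSh minus VTA was 1.13 with it (adjusted p = 0.0094) and 0.55 without it (adjusted p = 0.087).

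Rgs7, which pairs with Gnb5 and regulates Go, was highest in BLA and mPFC. It had 11.58, 11.76, 11.54 and 11.08 in BLA, 11.38, 11.46, 11.26 and 11.39 in mPFC, and 10.80, 11.19, 10.13 and 9.96 in NAcSh. BLA and mPFC did not differ (adjusted p = 0.54), and mPFC exceeded the next region, VTA, by 0.42 (adjusted p = 0.024). In NAcSh the 11.19 was again replicate 2, and the distance to the other regions was -0.50 ± 0.12 with it and -0.72 ± 0.11 without it, past the threshold both times. The signal of Rgs5 and Rgs17 in NAcSh passed against the rest with that array (adjusted p = 0.039 and 0.035) and did not without it (adjusted p = 0.10 and 0.086), while Rgs2 in NAcSh passed both times.

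Rgs14, a scaffold that also binds Ras and Rap proteins and is known from hippocampal area CA2, and Rgs16 were opposite in NAcC. Rgs14 had 5.34, 5.19, 5.09 and 5.77 in NAcC, against 4.00, 4.28, 4.11 and 4.36 in VTA. Its means in NAcC, mPFC and CeA, between 5.35 and 5.28, did not differ, nor did its lowest regions, vBNST and VTA. Rgs16, a regulator of Gi and Gq signaling that is induced by stimuli in many cell types, had 4.61, 4.73, 4.95 and 5.01 in mPFC, against 3.68, 3.78, 3.08 and 3.48 in NAcC. These groups did not overlap. Rgs16 in NAcC lay 0.87 ± 0.11 below the other 7 regions (adjusted p = 2.0e-07), and neighbors in its order, from mPFC at 4.82 through dlBNST, BLA, vBNST, VTA, NAcSh and CeA to NAcC at 3.51, did not differ in any of 7 steps.

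Rgs17 had the opposite position to Rgs4 and Rgs7 in mPFC. It had 11.14, 11.81, 11.57 and 11.21 in BLA, against 9.07, 9.0, 9.23 and 9.0 in mPFC, whose arrays lay below those of all other regions. mPFC was 1.86 ± 0.13 below the mean of the rest (adjusted p = 1.8e-13, background 81% of genes called). VTA, with 10.23, 10.09, 9.77 and 9.72, exceeded mPFC by 0.88 (adjusted p = 5.0e-05) and lay 0.75 below CeA (adjusted p = 0.00078). From CeA at 10.71 up to BLA at 11.43 no neighbors differed.

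Rgs5, known as a gene of pericytes and other mural cells of vessels, had 7.19, 7.95, 7.70 and 8.12 in VTA, against 6.55, 6.59, 6.08 and 7.16 in mPFC. VTA was 0.82 ± 0.17 above the rest (adjusted p = 0.00019, background 63.1%) and did not differ from CeA, the next region (adjusted p = 0.093). For Rgs5, 8 of 28 pairs of regions differed (7 without naive replicate 2 of NAcSh), against 14 to 23 for the members other than Rgs8 and Rgs9, with a background of 48.3% of pairs over all genes. Of 11 endothelial and mural markers tested, 4 were higher in VTA than in the rest and 7 were higher in mPFC, the region where Rgs5 was lowest. The mural markers Pdgfrb, Kcnj8 and Abcc9 averaged 3.52, 3.49 and 5.50 in VTA and 4.44, 3.22 and 4.92 in mPFC. Acta2, Tagln, Myh11, Des and Notch3 of the same list averaged 3.58, 3.35, 5.35, 3.41 and 3.34 in VTA. In mPFC these had 4.65, 4.18, 5.91, 3.50 and 3.31. Kcnj8, Des and Notch3 were below 4 in both regions. The part of the listed markers in the level of Rgs5 was not tested.

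For each member, the 3 genes with the most similar pattern over the 32 naive arrays were found among 9964 genes. The closest was Ralgps2 to Rgs17 (r = 0.95), followed by Mtf2 and Negr1 (r = 0.93 each). Rgs10 was nearest to Iqgap3 (r = 0.90), Syt10 (r = 0.87) and Unc45b (r = 0.86). For Rgs9 they were Onecut2, Fst and Dmkn (r = 0.88 each), and for Rgs2 they were Rasgrp2 (r = 0.88), Pcp4 (r = 0.87) and Adissp (r = 0.86). Rgs8 had Tmem41a (r = 0.89), Ppp1r9a (r = 0.85) and Meox2 (r = 0.84), and Rgs4 had D430041D05Rikl (r = 0.88), Sorbs2 (r = 0.87) and Hivep2 (r = 0.86). Rgs14 had Ccsap (r = 0.86), Pkig (r = 0.85) and Itpka (r = 0.85), Rgs7 had Sec14l2 (r = 0.85), Bdnf (r = 0.84) and Smap1 (r = 0.83), Rgs16 had Iqsec3 (r = 0.81), Icoslg (r = 0.80) and Sema5a (r = 0.80), and Rgs5 had Alkbh3 (r = 0.79), Rbpms (r = 0.77) and Akr1c15 (r = 0.76). The arrays share regions and the correlations describe these arrays only.

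The second question was whether the members differed between dependent, non-dependent and naive rats. Region accounted for 58.9% (Rgs5) to 86.2% (Rgs17) of the variance of a member over the 92 arrays, and group for 0.021% (Rgs14) to 3.62% (Rgs8). Within regions, 7 to 9 of the 10 members were bright enough to be tested, with Rgs8 tested in NAcC only and Rgs9 in NAcC and NAcSh only. In 192 tests of a member in a region, 0 passed an adjusted p of 0.05 (limma), and 13 had an unadjusted p under 0.05. Rgs9 in NAcSh and Rgs16 in VTA passed the filter through 1 group alone, non-dependent rats for Rgs9 and naive rats for Rgs16, so that their 6 tests, 3 of them among the 13, are set aside and their values are given as a description. Of the remaining tests, 2 of 62 (3.23%) had such a p for dependent vs non-dependent rats, against 7.17% over all genes. For dependent vs naive rats these were 3 of 62 (4.84%, against 11.3%), and for non-dependent vs naive rats 5 of 62 (8.06%, against 7.84%). The adjusted backgrounds were 0%, 0.0202% and 0.0101%. The 95% interval of the difference lay within 1 log2 unit of 0 in 183 of the 192 tests, and the other 9 intervals reached further.

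**Figure D2:**
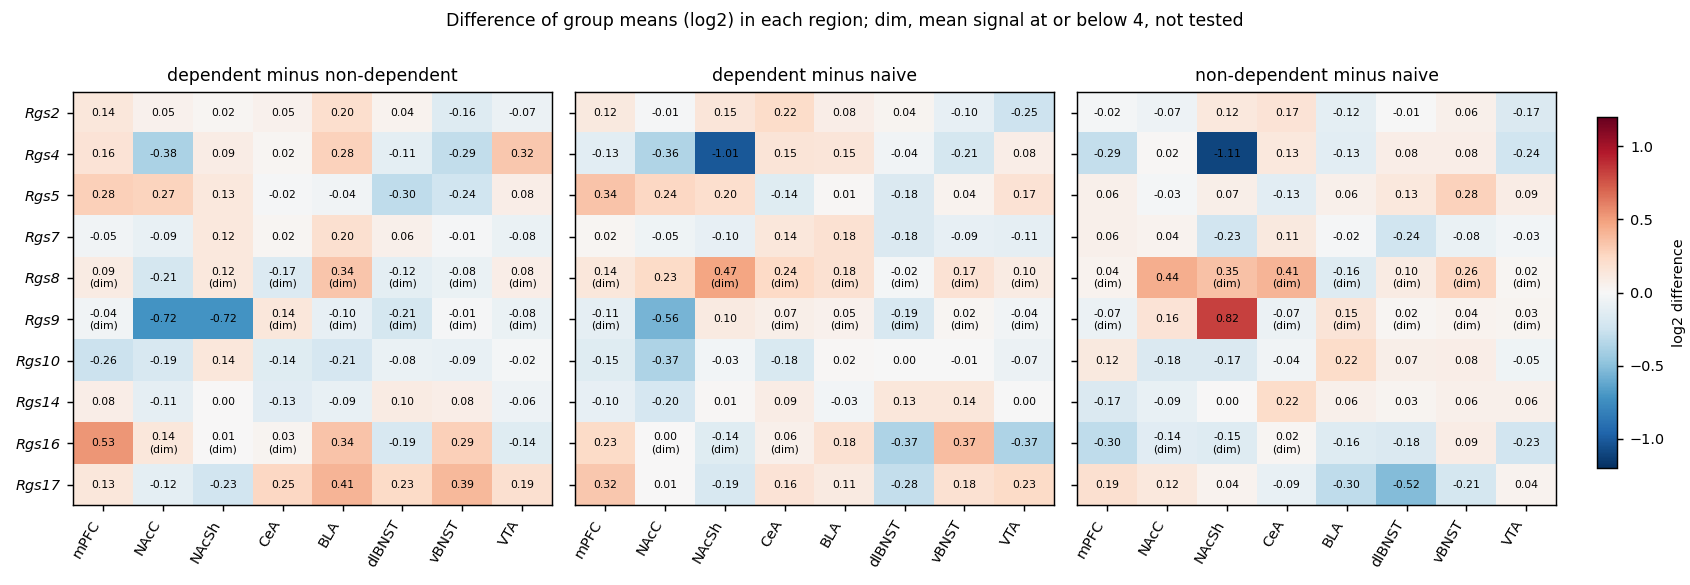
Difference of group means on the log2 scale (color and printed value) for each RGS gene (rows) in each region (columns), in a panel for each of 3 comparisons, where "dim" marks a mean signal at or below 4, which was not tested. The differences lay between -1.11 and 0.82, and 0 of 192 tested differences passed the adjusted threshold.

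The members and regions with an unadjusted p under 0.05 are given array by array, with Rgs9 in NAcSh and Rgs16 in VTA, and each of them failed the adjustment. Rgs17 in vBNST had 11.47, 11.58 and 11.65 in dependent rats, 11.29, 11.28, 10.98 and 11.14 in non-dependent rats and 11.61, 11.43, 11.24 and 11.25 in naive rats. Dependent arrays all lay above non-dependent arrays (0.39 ± 0.12, unadjusted p = 0.0074, adjusted p = 0.85), where 7.35% of genes had groups that did not overlap, and the naive arrays overlapped both groups. With dependent replicate 1 of vBNST, an array left out here, the difference was -0.31.

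In dlBNST, Rgs17 had 10.84, 10.85, 10.77 and 11.43 in dependent rats, 10.86, 10.15, 10.85 and 11.09 in non-dependent rats and 11.19, 11.32, 11.22 and 11.30 in naive rats. Non-dependent arrays lay below all naive arrays (-0.52 ± 0.19, unadjusted p = 0.018, adjusted p = 0.72, 5.06% of genes not overlapping). Of the probe sets of Rgs17, only the fourth-brightest had the opposite sign for this difference, with 0.19. Rgs7 in the same region had 10.45, 10.33, 10.52 and 10.69 in dependent rats, 10.52, 10.33, 10.55 and 10.33 in non-dependent rats and 10.70, 10.56, 10.73 and 10.71 in naive rats. The lowest naive array, 10.56, was just above the highest non-dependent array, 10.55 (-0.24 ± 0.10, adjusted p = 0.72). In mPFC, Rgs17 had 9.33, 9.63, 9.21 and 9.41 in dependent rats, 9.18, 9.68, 9.04 and 9.14 in non-dependent rats and 9.07, 9.0, 9.23 and 9.0 in naive rats, with 1 naive array above the lowest dependent array (dependent minus naive 0.32 ± 0.14, adjusted p = 0.28). The fourth-brightest probe set of Rgs17 was again the only one with the opposite sign, at -0.031.

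Rgs9 in NAcSh had 3.67, 3.78, 3.95 and 4.29 in dependent rats, 5.70, 3.71, 4.83 and 4.34 in non-dependent rats and 3.78, 3.65, 4.03 and 3.82 in naive rats. The non-dependent arrays spread over more than the other groups, and 3 of them lay above all arrays of both other groups. The differences of the means were -0.72 for dependent minus non-dependent rats and 0.82 for non-dependent minus naive rats, or 0.77 without naive replicate 2. The other probe set of Rgs9 averaged 4.26 in dependent rats, 3.86 in non-dependent rats and 3.49 in naive rats, the opposite direction for dependent minus non-dependent rats and the same direction for non-dependent minus naive rats.

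Rgs4 in NAcSh had 9.97, 9.88, 9.48 and 10.09 in dependent rats, 10.47, 9.03, 9.90 and 9.63 in non-dependent rats and 10.64, 12.58, 10.29 and 9.94 in naive rats. The naive group was higher in the mean and overlapped the others, and non-dependent minus naive was -1.11 ± 0.47 (adjusted p = 0.95). Without naive replicate 2, which carried the cortical markers, it was -0.53 (adjusted p = 1.0). Dependent replicate 3, the other array with cortical markers, had the lowest Rgs4 of its group, 9.48. In mPFC, Rgs4 had 12.86, 12.87, 12.80 and 12.93 in dependent rats, 12.84, 12.84, 12.52 and 12.62 in non-dependent rats and 13.11, 12.81, 12.77 and 13.29 in naive rats, where all groups overlapped (non-dependent minus naive -0.29 ± 0.13, adjusted p = 0.27). The other probe set of Rgs4 had 0.031 for this difference, the opposite sign.

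Rgs16 is given in 3 regions, in which the comparisons and directions differed. In mPFC it had 5.56, 4.76, 4.93 and 4.97 in dependent rats, 4.64, 4.43, 4.07 and 4.95 in non-dependent rats and 4.61, 4.73, 4.95 and 5.01 in naive rats (dependent minus non-dependent 0.53 ± 0.20, adjusted p = 0.91). In vBNST it had 4.99, 4.82 and 4.40 in dependent rats, 4.44, 4.11, 4.73 and 4.52 in non-dependent rats and 4.21, 4.45, 4.51 and 4.28 in naive rats (dependent minus naive 0.37 ± 0.17, adjusted p = 0.32). In VTA it had 3.89, 3.75, 4.00 and 3.76 in dependent rats, 4.05, 3.80 and 4.12 in non-dependent rats and 3.87, 4.19, 4.39 and 4.42 in naive rats (dependent minus naive -0.37). The dependent and naive arrays overlapped in VTA by a single naive array, 3.87, and groups overlapped in the other regions too. The test of whether dependent minus naive differed among regions gave an adjusted p of 0.21 for Rgs16, the smallest of the 10 members in that comparison. With arrays weighted by their quality it passed for Rgs16 (adjusted p = 0.032, and 0.014 for dependent minus non-dependent rats). The share of all genes that passed with these weights is not given.

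In NAcC, the region where both genes were highest, an unadjusted p under 0.05 was found for Rgs10 and Rgs8. Rgs10 had 11.65, 11.56, 11.76 and 11.33 in dependent rats, 11.76, 11.58, 11.73 and 12.01 in non-dependent rats and 11.73, 11.72, 12.14 and 12.18 in naive rats (dependent minus naive -0.37 ± 0.15, adjusted p = 0.51). Rgs8 had 4.39, 4.34, 4.26 and 4.58 in dependent rats, 4.36, 4.48, 4.48 and 5.10 in non-dependent rats and 4.53, 3.85, 4.13 and 4.16 in naive rats (non-dependent minus naive 0.44 ± 0.17, adjusted p = 0.74). The groups overlapped for both genes.

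**Figure D3:**
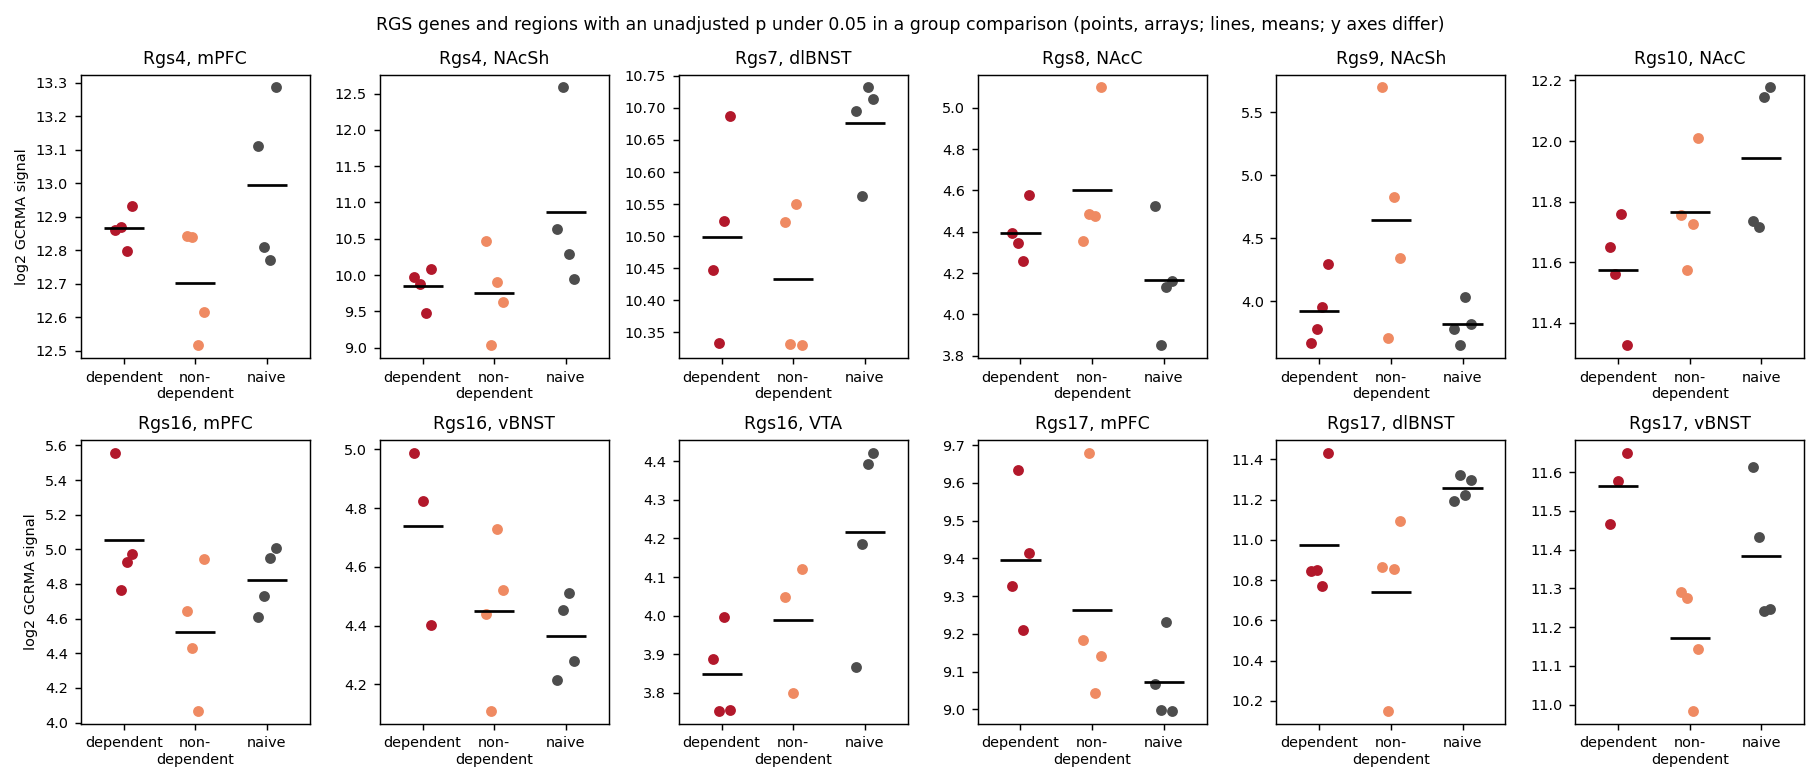
Log2 signal (y axis, with a scale of its own in each panel) of RGS genes by group (x axis) in the 12 gene and region pairs with an unadjusted p under 0.05 in a group comparison, where points are arrays (n = 3 or 4) and lines are means. Rgs9 in NAcSh and Rgs16 in VTA are shown as a description only, most groups overlap, and dependent arrays of Rgs17 in vBNST lie between 11.47 and 11.65, above the non-dependent arrays at 10.98 to 11.29.

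Over all regions, with region as a term, 1 member passed. Rgs8 was 0.19 ± 0.059 higher in dependent than in naive rats (95% interval 0.073 to 0.31, limma, adjusted p = 0.028, background 10.4% of 9890 genes called, 3.17% as higher), and it was higher in 7 of 8 regions. Several arrays came from each rat, so that p-values over all regions are too small. Outside NAcC the mean of Rgs8 over all groups was below 4 in every region. By region, dependent minus naive lay between -0.019 (dlBNST) and 0.47 (NAcSh, with naive replicate 2 kept). The difference lost the threshold without dependent replicate 1 or 4 or naive replicate 2, 3 or 4 of all regions (0.14 to 0.20, adjusted p = 0.052 to 0.12), and when all 96 arrays were kept (adjusted p = 0.40). Without naive replicate 2 of NAcSh alone it was 0.18 (adjusted p = 0.041). In non-dependent rats Rgs8 was 0.19 ± 0.060 higher than in naive rats (adjusted p = 0.078), and dependent minus non-dependent was 0.0017 with a 95% interval of -0.12 to 0.12.

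The other 9 members had no adjusted p under 0.05 over all regions. For dependent vs non-dependent rats 0 of 10 members passed (3 had an unadjusted p under 0.05, background 0.586% adjusted and 11.9% unadjusted). These were Rgs9 (-0.23 ± 0.087, adjusted p = 0.22), Rgs10 (-0.11 ± 0.051, adjusted p = 0.39) and Rgs17 (0.15 ± 0.072, adjusted p = 0.39). Outside NAcC and NAcSh the mean of Rgs9 over all groups was below 4 in every region. Its other probe set had the opposite sign in this comparison (0.13 ± 0.079, limma, adjusted p = 0.51). For non-dependent vs naive rats 0 of 10 passed (2 unadjusted, background 2.06% adjusted and 16.7% unadjusted). These 2 were Rgs8 and Rgs16 (-0.13 ± 0.065, adjusted p = 0.29). For dependent vs naive rats Rgs10 alone of the other 9 had an unadjusted p under 0.05 (-0.10 ± 0.050, adjusted p = 0.18, background 26.2% unadjusted), which was 0.056 without naive replicate 2 of NAcSh. The widest of the 30 intervals over all regions was that of Rgs4, from -0.21 to 0.23 for dependent minus non-dependent rats. Whether a group difference changed among regions was tested for each member and comparison, and 0 of 30 passed (backgrounds 0.586%, 2.71% and 2.22%, and 1 of 30 with an unadjusted p under 0.05, Rgs16 in dependent vs naive rats, where 17.8% of genes had one).

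**Figure D4:**
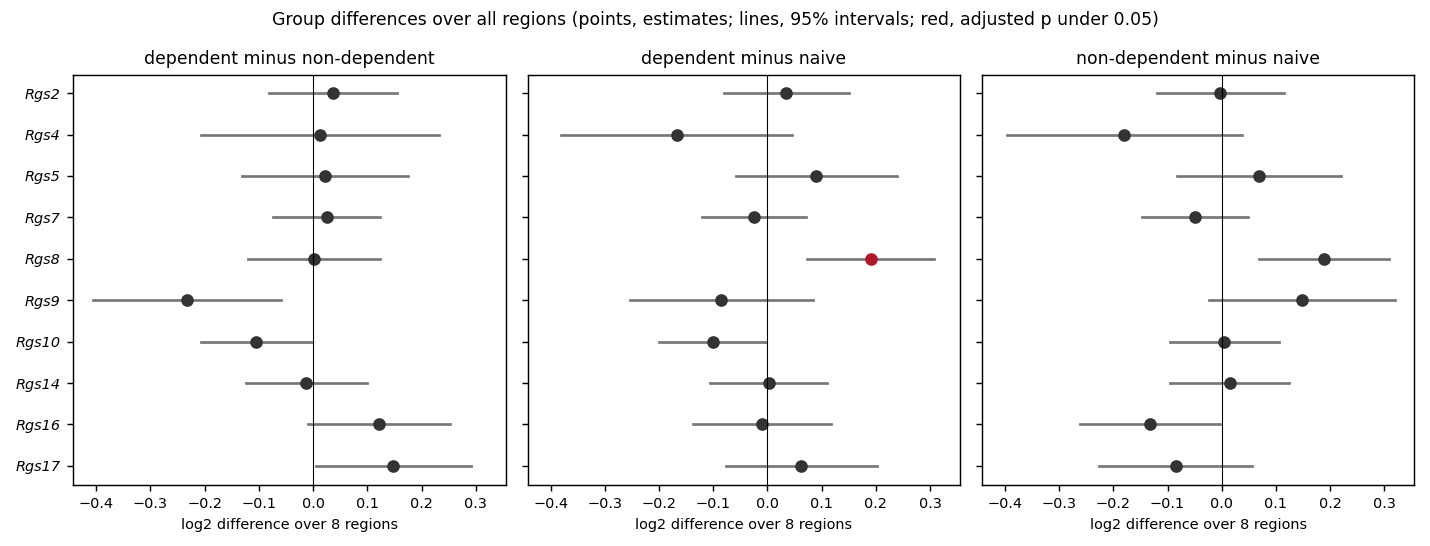
Group difference over all 8 regions on the log2 scale (x axis) for each RGS gene (rows), in a panel for each comparison, where points are estimates, lines are 95% intervals and red marks an adjusted p under 0.05. Only Rgs8 in dependent vs naive rats, at 0.19, is marked.

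The choice of probe set changed calls for Rgs17, Rgs2 and Rgs9. This was seen in a fit of 12792 probe sets, each on its own, that was added after the values of the probe sets were seen. The used probe set of Rgs17, the brightest of 5, had means over regions of 10.77 in dependent, 10.61 in non-dependent and 10.70 in naive rats. The second-brightest probe set, which followed it over regional means at r = 0.92, averaged 7.45 in dependent, 6.93 in non-dependent and 7.69 in naive rats. On it Rgs17 was lower in 8 of 8 regions of non-dependent rats, relative to naive rats (-0.76 ± 0.13, adjusted p = 7.7e-05, background 2.12% of probe sets called) and higher in 8 of 8 regions of dependent rats, relative to non-dependent rats (0.51 ± 0.13, adjusted p = 0.026, background 0.876%). The arrays nevertheless overlapped in 7 of 8 regions in each of these comparisons. In NAcSh, where they did not overlap for non-dependent against naive rats, the probe set had 6.62, 6.86, 6.36 and 6.69 in non-dependent rats and 7.61, 8.53, 7.97 and 7.26 in naive rats, where 8.53 is naive replicate 2 and the groups do not overlap without it either. In mPFC it had 6.49, 6.57, 6.68 and 6.25 in dependent rats and 6.19, 6.15, 6.05 and 6.04 in non-dependent rats, the region where these 2 groups did not overlap. Of genes on their used probe sets, 3.51% did not overlap in the NAcSh comparison and 2.63% in the mPFC comparison.

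Leaving out each replicate number of each group in turn, the non-dependent minus naive difference of the second-brightest probe set of Rgs17 passed in 12 of 12 fits (-0.87 to -0.62), and the dependent minus non-dependent difference in 7 of 12 (0.43 to 0.58, adjusted p up to 0.17). The -0.62 was the value without naive replicate 1. Several arrays came from each rat, so that these p-values are also too small. The labels do not say whether a replicate number marks a rat. The fourth-brightest probe set of Rgs17 had 0.28 ± 0.086 for non-dependent minus naive rats (adjusted p = 0.068), the opposite sign, and was 0.24 ± 0.085 higher in dependent than in naive rats (adjusted p = 0.047, passing in 5 of 12 fits with a replicate number left out, and 0.22 with an adjusted p of 0.071 without naive replicate 2 of NAcSh). The third-brightest had 0.10 ± 0.090 for non-dependent minus naive rats (adjusted p = 0.60). The 4 probe sets of Rgs17 bright enough to be tested therefore did not give 1 direction for the gene.

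**Figure D5:**
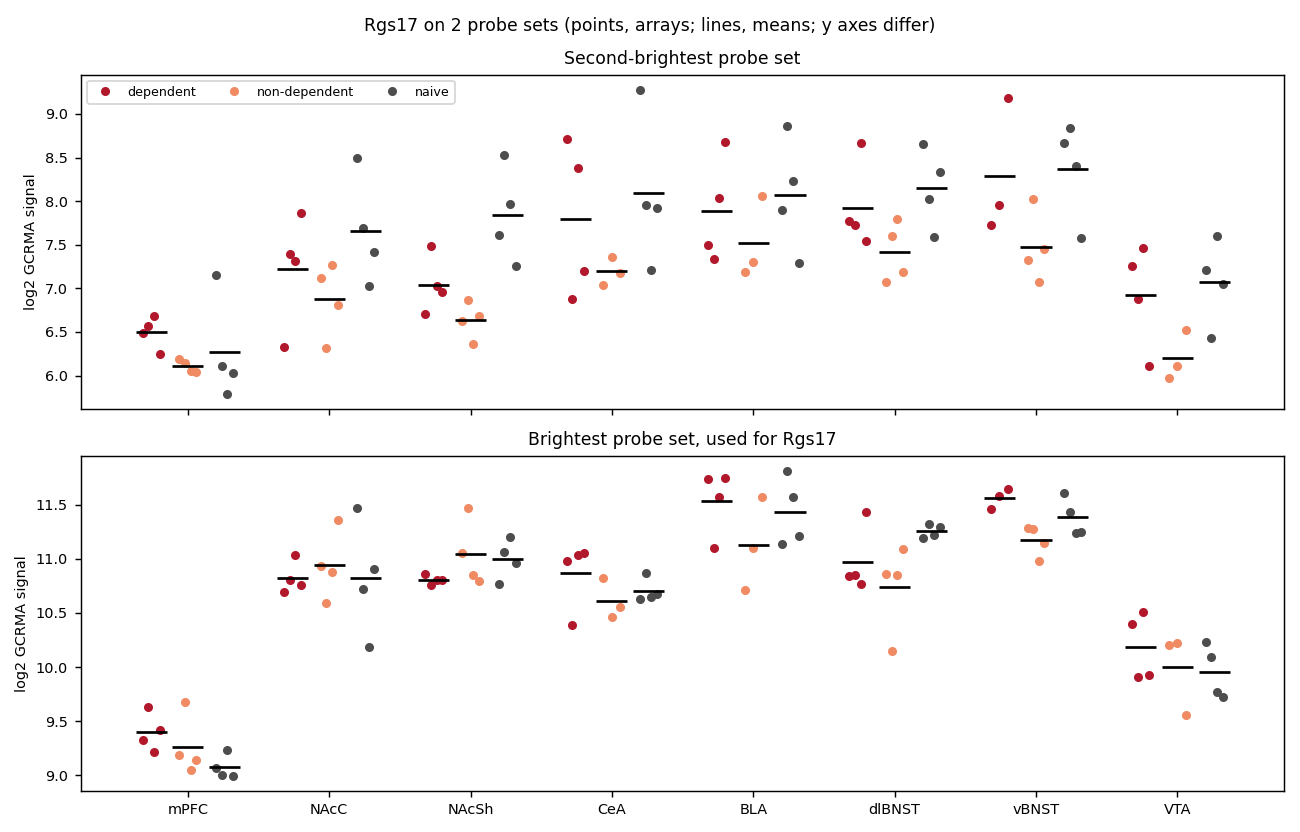
Log2 signal (y axes, with different scales) of 2 probe sets of Rgs17 by region (x axis) and group (color), where points are arrays and lines are means. On the second-brightest probe set the non-dependent mean is the lowest of the 3 groups in all 8 regions, with a mean over regions of 6.93, and on the brightest it is the lowest in 4 regions.

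The second probe set of Rgs2, the dimmer of 2, averaged 5.42 in dependent, 4.95 in non-dependent and 4.87 in naive rats, and dependent rats were above naive rats in 7 of 8 regions (0.55 ± 0.13, adjusted p = 0.0024, background 11.9%, 12 of 12 fits with a replicate number left out). The used probe set had 10.30 in dependent, 10.26 in non-dependent and 10.27 in naive rats (dependent minus naive 0.035 ± 0.058). With the mean of the 2 probe sets, Rgs2 was 0.29 higher in dependent than in naive rats (adjusted p = 0.012). The other probe set of Rgs9 was 0.24 ± 0.077 higher in dependent than in naive rats (adjusted p = 0.028, passing in 7 of 12 fits with a replicate number left out), whereas the used probe set had -0.085 ± 0.085. That other probe set was dim, with a regional mean over all groups of 5.11 in NAcC and 2.32 to 3.87 elsewhere. Without naive replicate 2 of NAcSh, the second-brightest probe set of Rgs17 had -0.73 for non-dependent minus naive rats (adjusted p = 0.00017), and dependent minus naive was 0.53 for the second probe set of Rgs2 (adjusted p = 0.0040) and 0.22 for the other probe set of Rgs9 (adjusted p = 0.045).

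The partners and the pathway around the members were followed in the same fits, with naive replicate 2 of NAcSh kept. Over all genes, 10.4% passed for dependent vs naive rats over all regions, 2.06% for non-dependent vs naive rats and 0.586% for dependent vs non-dependent rats, and the counts of the lists are to be read against these. Of 17 further RGS genes and partners, 6 were tested over all regions. Rgs7bp, the membrane anchor of Rgs7 and Rgs9, exceeded its naive level by 0.50 in dependent rats (adjusted p = 0.00062), and Rgs3, a regulator of Gi and Gq signaling, was lower (log2 difference -0.19, adjusted p = 0.032). Rgs3 was also lower in dependent than in non-dependent rats (-0.24, adjusted p = 0.043). The median over the tested genes of this list was -0.051 for dependent minus naive rats, and -0.033 over all genes. Of 21 G protein subunits tested, 1 passed in that comparison, against 10.4% of all genes, and this was Gnao1, the alpha subunit of Go, with 0.17 (adjusted p = 0.046). Next in p were Gng13 (-0.27, adjusted p = 0.055) and Gng3 (-0.20, adjusted p = 0.059).

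Of 12 effectors tested, the adenylyl cyclase Adcy9 was above its naive level in dependent rats (0.41, adjusted p = 0.0024) and in non-dependent rats (0.39, adjusted p = 0.013), and Adcy8 was below it in non-dependent rats (-0.30, adjusted p = 0.027). Dependent and non-dependent rats share the naive controls in these comparisons. Of 11 receptors coupled to Gq, Grm5, a metabotropic glutamate receptor, exceeded its naive level by 0.96 in dependent rats (adjusted p = 0.045), and of 16 receptors coupled to Gi or Go 0 passed over all regions. For dependent minus naive rats the smallest adjusted p-values among them were those of Npy1r (-0.36, adjusted p = 0.12), Sstr1 (-0.33, adjusted p = 0.16) and Grm3 (0.12, adjusted p = 0.18). Within regions 1 gene of these lists passed, Npy1r, a receptor of neuropeptide Y, which was lower in dependent than in naive dlBNST (log2 difference -1.27 ± 0.18, adjusted p = 0.021).

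Markers of cell types were followed in the same comparison, in which 10.4% of all genes passed. Over all regions, dependent minus naive rats, 1 of 7 microglia markers (Csf1r, -0.25, adjusted p = 0.013), 1 of 5 oligodendrocyte markers (Mbp, -0.30, adjusted p = 0.031) and 1 of 7 medium spiny neuron markers (Pde10a, 0.24, adjusted p = 0.010) passed. The cortical neuron marker Neurod2 had 0.14, but its naive means were at most 3.94. It met the filter only through the drinking groups, so that its value is given as a description. No other cortical neuron marker tested passed. Of 8 immediate early genes Egr1 (0.33, adjusted p = 0.011) and Egr2 (0.98, adjusted p = 0.0030) were higher in dependent than in naive rats, and 0 of 11 endothelial and mural markers (Abcc9 had the smallest adjusted p, 0.11), 0 of 6 astrocyte markers (Aldh1l1, 0.065) and 0 of 5 dopamine neuron markers (Nr4a2, 0.079) passed. The part of these markers in the difference of Rgs8 was not tested.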

How the data were processed

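RNA of microdissected tissue from 8 brain regions was amplified, labeled with biotin and hybridized to Affymetrix rat arrays. The deposited values are log2 signals that the authors computed with GCRMA 2.36.0 in R 3.03, per the labels. The remapping and filter of probes (Cleaner) that the study applied later is not part of them. Array medians of the 92 arrays used were 3.81 to 3.94, and no further normalization was applied. The number of arrays, 3 or 4 per group and region, limits the precision, and p-values measure the spread between these arrays. The members and all gene lists were chosen with earlier results of these data known. Of 31099 probe sets 20832 named 1 gene, and the probe set with the highest mean stood for a gene. Array values are given for members in their highest and lowest region and wherever a group comparison had an unadjusted p under 0.05. From the lists, genes past the adjusted threshold are named, or else those with the smallest p.

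Groups were compared with limma 3.58.1 in R 4.3.3: in a fit of each region (genes with a mean above 4), a fit of the 32 naive arrays by region, and a fit of the 92 arrays with region as a term (both with genes whose mean was above 4 in at least 1 region). P-values were adjusted by Benjamini-Hochberg over all genes of a comparison. Scripts were tested on simulated data. Alternatives were scaling of array medians or quantiles, no filter or one above 6, probe sets of a gene averaged, all 96 arrays kept, array weights, a replicate block, fits of 2 groups, all 92 arrays with group as a term for the naive levels, and leaving out replicates. Promoter windows (RefSeq, GRCr8) were searched on both strands.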

Additional observations from a re-analysis of the deposited data

Results flagged for a closer look

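In 200 groups of 4 arrays of the members, 8 held an array that stood apart from the other 3 by more than Dixon's 95% critical value, and chance alone gives about 1 in 20. Rgs2 was lowest in naive replicate 4 of mPFC (9.88, others 10.18 to 10.23) and highest in naive replicate 4 of NAcC (11.21, others 10.97 to 10.98). Rgs5 was highest in naive replicate 1 of NAcSh (6.97, others 6.51 to 6.58) and in non-dependent replicate 2 of vBNST (7.79, others 6.91 to 6.96). Rgs14 was lowest in dependent replicate 3 of NAcC (4.58, others 5.28 to 5.38) and in non-dependent replicate 4 of NAcC (5.02, others 5.31 to 5.36). Rgs17 was lowest in dependent replicate 2 of CeA (10.39, others 10.98 to 11.06) and highest in dependent replicate 4 of dlBNST (11.43, others 10.77 to 10.85).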

How the results depend on the processing

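With a filter above 6, Rgs8, Rgs9, Rgs14 and Rgs16 had no regional mean above it and were not tested. The 6 members left all differed among regions, as did 96.6% of genes with the main filter. Of their contrasts of a region with the rest 28 passed, where the main filter gave 47 with all 10 members counted. Of these 47, 9 were of Rgs8 and Rgs9, which passed the filter through NAcC alone. For dependent vs naive rats over all regions 0 of the 6 passed, and Rgs8 was not among them. In that comparison 0 members also passed with all 96 arrays, 2 with the mean of probe sets (Rgs2 and Rgs8), 4 with each probe set on its own (Rgs2, Rgs8, Rgs9 and Rgs17), and 0 to 1 when a replicate number was left out. Each probe set on its own gave 1 member (Rgs17) for dependent vs non-dependent and 1 (Rgs17) for non-dependent vs naive rats. Array weights gave 1 member (Rgs8) for non-dependent vs naive rats over all regions, and 1 (Rgs16) each for the differences among regions of dependent vs non-dependent and of dependent vs naive rats. Leaving out a replicate number gave 0 to 1 members for non-dependent vs naive rats over all regions, the 1 being Rgs8 without dependent replicate 4 (adjusted p = 0.041). For the group comparisons, the share of all genes called is not given with all 96 arrays, the mean of probe sets, array weights or a replicate left out. The counts of members in these settings therefore have no background to be read against. With all 96 arrays the sign turned for Rgs17 in vBNST (-0.31) and Rgs10 over all regions (0.024), both dependent minus non-dependent. Contrasts of a region with the rest numbered 38 to 45 without a naive replicate, with those of Rgs8 and Rgs9 counted. The replicate block changed no count by over 1.5 times: Rgs8 had 0.19 (adjusted p = 0.020) for dependent minus naive rats, with a correlation within blocks of -0.0099. Replicate numbers were not taken as pairs between groups, since in 0 of 24 comparisons did every pair deviate together (correlation over 0.1). Between regions of naive rats every same-numbered pair did in 6 of 28 pairs of regions (1 of 28 in dependent and 1 of 28 in non-dependent rats), and the labels do not say whether a number marks a rat, so that the naive fit without the block treats arrays that may share a rat as independent. With the replicate block, the 8 members other than Rgs8 and Rgs9 differed among regions in the naive fit (96.7% of genes). Of their 64 contrasts of a region with the rest 38 passed (51% over all genes), and no call changed. Between pairs of regions, 6 of the 280 contrasts of all 10 members changed their call. Leaving out naive replicate 2 of NAcSh and testing each probe set on its own were chosen after seeing the data. The cause of these changes was not tested. The limits are the 3 or 4 arrays per group, the 4 arrays left out and the dim signals of Rgs8, Rgs9 and Rgs16, of which Rgs8 and Rgs9 were near 4 or below it in most regions.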
